A study of Homo sapiens with 24 samples.

Results

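Within the RT112 bladder cancer series, 6 of the 24 arrays had a high signal for GAS1, and they split into 3 with a low and 3 with a high signal for TACC3. This account describes these 6 arrays. They were chosen by measured values and not by their labels. The low-TACC3 arrays had TACC3 below 11.6 on the log2 scale on probe set 218308_at, and the high-TACC3 arrays had it at or above 11.6. All 6 had GAS1 above 7.5 on its brightest probe set. The sets cut across the labelled groups, so they are not treatment groups, and nothing below says which cells received which treatment. Because the arrays were selected on these values, every difference between the sets is a description of these 6 arrays and carries no test, mean or error of a set.

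RT112 is an established human bladder cancer line, and mRNA was measured on Affymetrix 3' expression arrays. Per the labels, each line expressed, when doxycycline was added, a short hairpin RNA that targets FGFR3 (hairpins 2-4, 4-1 and 6-16) or EGFP, a jellyfish gene used as the control target. All lines were grown in 1% serum, and all were kept for 48 h with 1 µg/ml doxycycline or without it, which gives 8 labelled groups of 3 arrays. The low-TACC3 arrays are labelled as EGFP hairpin without doxycycline replicate 1, EGFP hairpin with doxycycline replicate 3, and FGFR3 hairpin 4-1 without doxycycline replicate 2. The high-TACC3 arrays are labelled as FGFR3 hairpin 2-4 with doxycycline replicate 3, FGFR3 hairpin 6-16 with doxycycline replicate 3, and FGFR3 hairpin 4-1 without doxycycline replicate 3. Values of the 3 arrays of a set are always given in this order. The labels do not say whether replicates were separate cultures, so p-values measure only the spread between arrays, which may be technical.

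FGFR3 is a receptor tyrosine kinase that signals through RAS and ERK, and its activity is known to be raised in many urothelial cancers. TACC3 is a mitotic spindle protein, and RT112 cells are known to carry a gene fusion that joins the kinase part of FGFR3 to the end of TACC3. ERK signalling induces its own inhibitors, such as the DUSP phosphatases and Sprouty proteins, together with ETS factors of the ETV4 and ETV5 type. GAS1 is a membrane protein that binds hedgehog ligands and was first known from growth-arrested cells.

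TACC3 had log2 levels of 11.43, 11.34 and 11.38 on the low-TACC3 arrays, and 12.27, 12.12 and 12.09 on the high-TACC3 arrays. The values nearest the threshold of 11.6 were 11.43 below it and 12.09 above it among the 6 arrays, and 11.43 and 11.82 among the other 18. Of those 18 arrays, 6 lay below the threshold and 12 above it, over a range of 10.49 to 12.62. GAS1 on its brightest probe set, 204457_s_at, had 9.47, 8.96 and 8.95 on the low-TACC3 arrays, against 9.14, 8.52 and 9.03 on the high-TACC3 arrays. The 2 sets overlapped in GAS1, while no other array of the series exceeded 6.51. Its other probe sets, 204456_s_at and 228187_at, were dim on all arrays. On 204456_s_at the levels were 6.03, 6.21 and 6.05 on the low-TACC3 arrays and 5.71, 5.93 and 5.94 on the high-TACC3 arrays, where the highest of the other 18 was 5.96. On 228187_at they were 6.26, 6.49 and 6.44 on the low-TACC3 arrays and 6.35, 6.47 and 6.28 on the high-TACC3 arrays, within the 6.17 to 6.54 of the other 18. The label of high GAS1 thus rests on 1 of 3 probe sets.

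The arrays of a set were not equally alike. Across 19775 genes, each centred on its mean over the 24 arrays, the low-TACC3 arrays correlated with each other at 0.70 to 0.83 (Pearson). Among the high-TACC3 arrays, those labelled 2-4 and 4-1 correlated at 0.76, while the one labelled 6-16 had 0.31 and 0.34 with them. The array labelled 6-16 stood apart, and its nearest array was EGFP hairpin with doxycycline replicate 2, at 0.47. With the arrays of their own label, the low-TACC3 arrays correlated at -0.51 and 0.52, -0.18 and -0.11, and -0.11 and -0.02. For the high-TACC3 arrays these values were -0.13 and 0.25, -0.64 and 0.40, and -0.51 and -0.11. Genes share these arrays and are not independent replicates, so these values are descriptions. Counts of lists are therefore also given without the array labelled 6-16 below; in lists where no such count is given, it was the same. Signs of RNA quality were close: among the degradation probe sets, the excess of 3' over 5' signal for ACTB was 0.95, 0.79 and 0.86 on the low-TACC3 arrays, and 0.70, 0.76 and 0.91 on the high-TACC3 arrays. For GAPDH this excess was 0.33, 0.28 and 0.32 on the low-TACC3 arrays and 0.27, 0.26 and 0.20 on the high-TACC3 arrays. The sets overlapped for ACTB and did not for GAPDH. The part of RNA quality in the results was not tested.

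All 6 arrays carried the defining urothelial markers. The luminal factor GATA3 was at 13.56, 13.46 and 13.52 on the low-TACC3 arrays, against 13.28, 13.26 and 13.21 on the high-TACC3 arrays. The epithelial keratin KRT19 lay at 13.60 on each low-TACC3 array, and at 13.55, 13.48 and 13.54 on the high-TACC3 arrays. PPARG, a nuclear receptor of luminal urothelium, had 10.54, 10.39 and 10.41 on the low-TACC3 arrays and 10.92, 10.69 and 10.86 on the high-TACC3 arrays. Among markers of other cell types, PTPRC, which marks leukocytes, stayed between 5.72 and 5.92 on the 6 arrays, the T cell gene CD3E between 8.20 and 8.57, and the fibroblast collagen COL1A1 between 9.02 and 9.39. The sets overlapped in these 3 genes. Of 13 fibroblast markers, 3 lay higher on the low-TACC3 arrays without overlap, by 0.32 for DCN, 0.27 for COL5A1 and 0.15 for LUM. Over all 19775 genes, 2800 lay higher without overlap, and nothing is read from the count of 3 beside this. COL5A1, a fibrillar collagen chain, had 8.34, 8.32 and 8.36 on the low-TACC3 arrays and 8.18, 8.07 and 8.04 on the high-TACC3 arrays, where no other array exceeded 7.84. The proteoglycan DCN had 8.34, 8.38 and 8.40 on the low-TACC3 arrays, against 8.06, 8.25 and 8.02 on the high-TACC3 arrays, while its probe set of largest SD differed by -0.09. The proteoglycan LUM lay between 13.02 and 13.29 on the 6 arrays. The part of these markers in the results was not tested. None of 13 fibroblast markers and none of 12 leukocyte markers met the counting rule given next. Log2 levels summed over the fibroblast list were 99.2 to 100.1 on the low-TACC3 arrays and 98.4 to 100.02 on the high-TACC3 arrays. For the leukocyte list the sums were 81.7 to 83.2 on the low-TACC3 arrays, against 80.3 to 83.2 on the high-TACC3 arrays. A log2 array value has no true zero, so no marker can be said to be at 0.

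A gene was counted as lower where all 3 low-TACC3 arrays lay below all 3 high-TACC3 arrays and the medians of the sets differed by at least 1.5-fold, and as higher in the opposite case. By this rule 359 of 19775 genes were lower (1.82%) and 161 were higher (0.814%). At a difference of at least 2-fold there were 50 lower and 28 higher. The median difference over all genes, low minus high, was 0.013 on the log2 scale. Without the array labelled 6-16, 428 genes were lower and 150 higher. With each array centred on its own median, 602 were lower and 113 higher, so that the lower share of counted genes was 84.2% against 69.0% as deposited. Since the arrays were chosen in this same contrast, these shares are background for the counts below, and nothing is read from a count beside them. These are bulk samples, so fewer cells of a type and less RNA per cell cannot be told apart.

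Apart from this choice, the labels were tested. With limma over all 24 arrays, the mean change with doxycycline in the 3 FGFR3 lines minus that in the EGFP line gave 0 called genes of 19775 (0%) at an adjusted p of 0.05, and 428 at an unadjusted p under 0.05. Limma's F-test between the 8 labelled groups gave 0 of 19775 (0%), and 476 at an unadjusted p under 0.05. Both unadjusted counts were below the share of 0.05 of genes that this threshold passes on average when no gene differs. When arrays were weighted by their quality, the first comparison called 0 genes and the F-test 1. With these weights limma gave 2755 and 4572 genes at an unadjusted p under 0.05, so the unadjusted counts depend on the weighting. The 62 genes named by the rule in the methods all had a limma adjusted p of 1.00 in the first comparison. DUSP6 had a labelled change of -0.62 ± 0.82 (SE) in it, HMGCS1 -0.63 ± 0.61 and FGFR3 -0.05 ± 0.35. The FGFR3 value is for its brighter probe set, 204379_s_at, alone. It says nothing on the dimmer probe set, 204380_s_at. These labelled comparisons include the 6 arrays, and no gene below passed either of them.

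FGFR3 itself differed between its probe sets. On the brighter one, 204379_s_at, levels were 12.20, 12.14 and 12.13 on the low-TACC3 arrays and 12.34, 12.30 and 12.27 on the high-TACC3 arrays. The sets did not overlap, but the difference of medians was -0.16. On the dimmer one, 204380_s_at, levels were 9.80, 9.88 and 9.75 on the low-TACC3 arrays, against 10.95, 10.84 and 10.80 on the high-TACC3 arrays, a difference of -1.03. All 6 arrays lay at or above 12.13 on the brighter probe set, where the median of the other 18 was 11.94 and their highest value 12.22. On the dimmer probe set the other 18 ran from 8.71 to 11.20, so the low-TACC3 arrays lay inside their range. The TACC3 difference of -0.74 belongs to the choice of the arrays and is no finding.

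**Figure D1:**
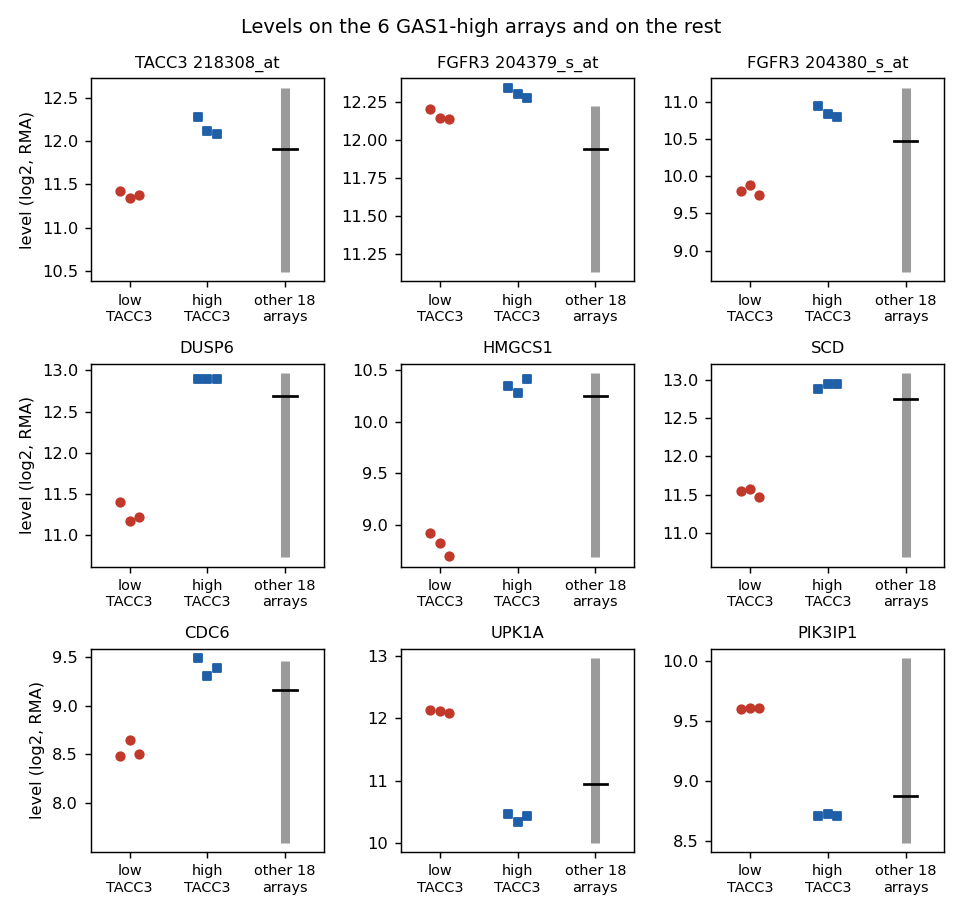
Log2 levels of TACC3, both FGFR3 probe sets and 6 genes of the lists described below; red circles are the 3 low-TACC3 arrays, blue squares the 3 high-TACC3 arrays, each in the order given in the text, and the grey bar is the range of the other 18 arrays with its median as a black line. The sets do not overlap in any panel, with differences from -1.68 for DUSP6 to 1.67 for UPK1A, and the brighter FGFR3 probe set differs by only -0.16.

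Feedback inhibitors and outputs of ERK lay lower on the low-TACC3 arrays. Of 22 measured genes of this list, 8 were counted lower, 0 higher and 14 neither, with a median difference of -0.51 against 0.013 over all genes. Without the array labelled 6-16 the count was 9 lower and 0 higher, with a median of -0.54. DUSP6, the phosphatase that removes the activating phosphates from ERK, had 11.40, 11.18 and 11.22 on the low-TACC3 arrays and 12.89, 12.90 and 12.90 on the high-TACC3 arrays. Its 3 high-TACC3 values were nearly equal, and the low-TACC3 median was 3.20-fold below theirs.

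PHLDA1, a pleckstrin homology protein induced by ERK, had 10.61, 10.65 and 10.60 on the low-TACC3 arrays, against 11.82, 11.74 and 11.76 on the high-TACC3 arrays. The ETS factor ETV4 had 8.63, 8.70 and 8.70 on the low-TACC3 arrays and 9.72, 9.74 and 9.75 on the high-TACC3 arrays. In both genes the arrays of a set lay close together and the sets lay far apart. The related factor ETV5, the EGFR ligand HBEGF and the AP-1 subunit FOSL1 differed by -0.95, -0.84 and -0.79. The RAS inhibitor SPRED1 differed by -0.59 and completed the list of counted genes with IER3 at -0.63. The Sprouty genes were not counted: SPRY2 had -0.35, SPRY4 -0.23 and SPRY1 -0.11, and the sets overlapped for SPRY1. The immediate early genes EGR1 and FOS had 0.15 and 0.26, and the chemokine CXCL8 had 0.47, in each case with the low-TACC3 arrays above the high-TACC3 ones. Cyclin D1, CCND1, had 10.51, 10.42 and 10.37 on the low-TACC3 arrays, against 10.84, 10.77 and 10.84 on the high-TACC3 arrays, without overlap but under 1.5-fold.

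In the lists of the FGF and EGFR families, 1 gene each was counted lower and 0 higher. FGFBP1, a secreted protein that releases FGFs from the matrix, had 9.06, 9.15 and 9.13 on the low-TACC3 arrays and 11.00, 10.87 and 11.09 on the high-TACC3 arrays. That is a 3.66-fold lower median, and FGFBP1 was the only one of 12 measured genes of its list to be counted. FGFR2, a sister receptor, had 10.43, 10.27 and 10.36 on the low-TACC3 arrays, against 9.84, 9.65 and 9.88 on the high-TACC3 arrays, a difference of 0.53 without overlap. FGFR1 and FGFR4 differed by -0.03 and -0.04, with overlap. Among 11 genes of the EGFR family, 1 was counted lower, the EGFR inhibitor ERRFI1. It had 10.18, 10.09 and 10.05 on the low-TACC3 arrays and 10.71, 10.55 and 10.74 on the high-TACC3 arrays. The receptor ERBB2 differed by 0.40 and the ligand NRG4 by 0.46, both without overlap, and EGFR by -0.12 with overlap. The 13 measured hedgehog pathway genes, to which GAS1 belongs, held 0 counted in either direction. CDON, a co-receptor for hedgehog ligands like GAS1, had their largest difference, 0.27, and the target PTCH1 had 0.26.

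Enzymes of cholesterol synthesis made up the list with the lowest median. Of 15 measured, 10 were counted lower and 0 higher, all 15 differences were below 0, and the median was -0.88. These values were the same when the array labelled 6-16 was left out. HMGCS1, which makes the HMG-CoA that enters the pathway, had 8.92, 8.83 and 8.70 on the low-TACC3 arrays, against 10.34, 10.28 and 10.41 on the high-TACC3 arrays. MSMO1, a demethylase of later sterol intermediates, had 9.54, 9.42 and 9.45 on the low-TACC3 arrays and 11.11, 10.91 and 11.13 on the high-TACC3 arrays. SQLE, squalene epoxidase, had 11.15, 11.18 and 11.15 on the low-TACC3 arrays, against 12.56, 12.45 and 12.52 on the high-TACC3 arrays. The medians of these 3 genes were 2.86-, 3.15- and 2.59-fold lower.

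Most other steps of sterol synthesis lay in the same direction. DHCR7, IDI1 and FDPS differed by -1.18, -1.16 and -1.02, and LSS, EBP, MVD and NSDHL by -0.94 to -0.79. The early kinases MVK and PMVK had -0.07 and -0.02. In the list of sterol control and uptake, 2 of 11 were counted lower and 0 higher, and 3 were lower without the array labelled 6-16. INSIG1, which holds SREBP factors in the endoplasmic reticulum and is itself induced by them, had 10.51, 10.36 and 10.39 on the low-TACC3 arrays and 11.80, 11.73 and 11.93 on the high-TACC3 arrays. The factor SREBF1 had 10.61, 10.70 and 10.67 on the low-TACC3 arrays, against 11.34, 11.28 and 11.29 on the high-TACC3 arrays. SREBF2, the main factor for sterol genes, differed by -0.35. The sterol exporters ABCA1 and ABCG1, induced by LXR, had 0.03 and 0.27.

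Fatty acid synthesis followed with a median of -0.72, where 8 of 14 measured genes were counted lower and 0 higher. The counts were the same and the median was -0.77 when the array labelled 6-16 was left out. SCD, which introduces the first double bond into fatty acids, had 11.55, 11.58 and 11.47 on the low-TACC3 arrays, against 12.88, 12.94 and 12.94 on the high-TACC3 arrays. Fatty acid synthase, FASN, had 10.47, 10.47 and 10.39 on the low-TACC3 arrays and 11.69, 11.63 and 11.67 on the high-TACC3 arrays. The elongase ELOVL5 had 9.55, 9.52 and 9.38 on the low-TACC3 arrays, against 10.61, 10.46 and 10.71 on the high-TACC3 arrays. These were 2.61-, 2.31- and 2.14-fold lower medians. The enzymes that supply acetyl-CoA and NADPH, ACSS2, ACLY and ME1, differed by -1.05, -0.99 and -0.97. FADS2 had -0.09 with overlap.

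A binding motif of SREBP factors was searched in the promoters of both lists, as given by RefSeq on GRCh38.p14, over the 250 bases before the gene's start and on both strands. The motif TCACNCCAC was found in 0 of 14 promoters of cholesterol genes, in 0 of 13 of fatty acid genes and in 0.883% of 35116 promoters. This says only that these letters are not in these windows.

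PPARG targets did not lie one way. FABP4, a lipid chaperone and PPARG target of luminal urothelium, had 9.63, 9.63 and 9.69 on the low-TACC3 arrays, against 11.96, 11.77 and 11.995 on the high-TACC3 arrays. Its median was 5.03-fold lower. The related FABP5 had 8.29, 8.31 and 8.26 on the low-TACC3 arrays and 8.998, 8.87 and 9.17 on the high-TACC3 arrays, and no other array of the series exceeded 7.06. PDK4, a kinase that restrains pyruvate oxidation, was higher, with 6.52, 5.99 and 6.41 on the low-TACC3 arrays and 5.38, 5.43 and 5.23 on the high-TACC3 arrays. The other 7 of 10 measured members were counted in neither direction, with PLIN2 and ANGPTL4 at 0.01 and 0.00.

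Cell cycle genes lay lower together, by smaller steps. All 24 measured genes of G1/S and replication differed below 0, with a median of -0.37, and 7 were counted lower and 0 higher. CDC6, which loads the replicative helicase, had 8.48, 8.65 and 8.50 on the low-TACC3 arrays, against 9.49, 9.31 and 9.39 on the high-TACC3 arrays. MCM10, a replication initiation factor, had 9.03, 8.88 and 8.90 on the low-TACC3 arrays and 9.67, 9.56 and 9.69 on the high-TACC3 arrays. GINS2, a subunit of the replicative helicase, had 10.41, 10.30 and 10.30 on the low-TACC3 arrays, against 11.04, 10.84 and 11.05 on the high-TACC3 arrays. The abundant members PCNA, TYMS and RRM2 differed by only -0.19, -0.14 and -0.25.

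All 23 measured genes of G2/M and the spindle also differed below 0, with a median of -0.30, but 1 was counted lower and 0 higher. This was CDC20, an activator of the anaphase-promoting complex, with 10.75, 10.63 and 10.64 on the low-TACC3 arrays and 11.29, 11.07 and 11.24 on the high-TACC3 arrays. CCNB1, cyclin B1, followed with -0.52, and the proliferation marker MKI67 with -0.34. TOP2A and BIRC5 had -0.04 and -0.09, with overlap. TACC3 is a spindle gene itself and was kept out of this list. Leaving it out does not make either cell cycle list independent of the choice of the arrays. Genes whose levels run with TACC3 can lie lower by that choice alone. With the array labelled 6-16 left out, the median was -0.39 for the G1/S list and -0.31 for the G2/M list, and the counts were the same. No D cyclin, CDK or CDK inhibitor was counted among 14 measured, and CDKN1A and CDKN1B differed by 0.10 and 0.07 with overlap.

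**Figure D2:**
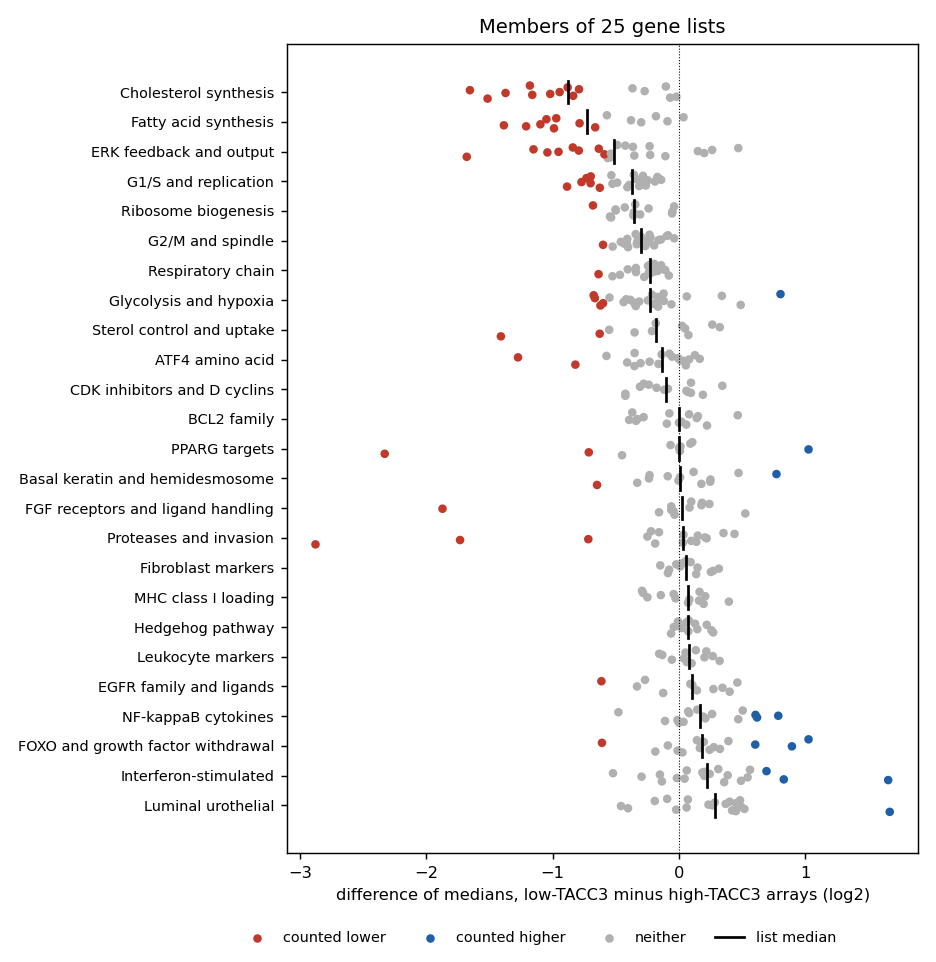
Each point is a measured member of 1 of the 25 gene lists, placed on the x axis by the difference of medians between the low-TACC3 and the high-TACC3 arrays on the log2 scale; lists run down the y axis by their median, drawn as a black bar. Cholesterol synthesis (-0.88), fatty acid synthesis (-0.72), ERK output (-0.51) and G1/S genes (-0.37) have the lowest medians, and luminal (0.29) and interferon genes (0.23) the highest.

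Of 19 measured luminal urothelial genes, 14 differed above 0, with a median of 0.29. Without overlap, 13 lay higher and 2 lower, where 2800 and 3799 of all 19775 genes did so. In this list 1 gene met the fold required and was counted higher, and 0 were counted lower. That gene was UPK1A, a uroplakin of the plaques on umbrella cells, with 12.13, 12.11 and 12.08 on the low-TACC3 arrays, against 10.47, 10.34 and 10.44 on the high-TACC3 arrays. The other uroplakins UPK3B, UPK1B and UPK2 differed by 0.52, 0.45 and 0.42, and UPK3A by -0.02 with overlap. KRT20, the umbrella cell keratin, differed by 0.49 but was dim on these arrays. It had 6.00, 5.88 and 5.98 on the low-TACC3 arrays and 5.61, 5.42 and 5.48 on the high-TACC3 arrays. The simple keratins KRT8 and KRT18 had -0.46 and -0.40.

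Basal genes were split. Of 13 measured, 1 was counted lower and 1 higher. KRT5, the basal keratin, had 11.80, 11.87 and 11.75 on the low-TACC3 arrays and 12.45, 12.49 and 12.42 on the high-TACC3 arrays. LAMB3, a laminin chain of the basement membrane, had 11.35, 11.22 and 11.25 on the low-TACC3 arrays, against 10.45, 10.48 and 10.50 on the high-TACC3 arrays.

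Of 20 measured interferon-stimulated genes, 3 were counted higher, 0 lower and 17 neither, and the median was 0.23. Without the array labelled 6-16 these counts were the same and the median was 0.29. With all 6 arrays, 12 of the 20 lay higher and 2 lower without overlap, where 2800 and 3799 of all 19775 genes did so. IFI44L, an interferon-induced gene, had 7.92, 7.73 and 7.94 on the low-TACC3 arrays, against 6.13, 6.35 and 6.26 on the high-TACC3 arrays. IFIT1, which binds foreign RNA, had 9.71, 9.73 and 9.63 on the low-TACC3 arrays and 9.02, 8.71 and 8.88 on the high-TACC3 arrays. IRF9, the DNA-binding part of the interferon-activated complex ISGF3, had 10.48, 10.53 and 10.56 on the low-TACC3 arrays, against 9.90, 9.71 and 9.84 on the high-TACC3 arrays. Not all members followed: OAS3 differed by -0.52 without overlap, and ISG15 and IFI27 by -0.29 and -0.13 with overlap.

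The binding element of ISGF3, read here as GAAA, any 2 bases and GAAA on either strand, was found in 10 of 15 promoters of the interferon list (66.7%) and in 3.02% of all 35116, over the 250 bases before the gene's start. Promoters of the 2 counted genes that hold it are shown 5′ to 3′ with the matches in capitals. They lie on GRCh38.p14, plus strand, at chr1:78620198-78620447 for IFI44L and chr10:89392373-89392622 for IFIT1, and come from RefSeq. A match is a description of the letters, and the members OAS3, ISG15 and IFI27, which did not lie higher, also hold one.
IFI44L: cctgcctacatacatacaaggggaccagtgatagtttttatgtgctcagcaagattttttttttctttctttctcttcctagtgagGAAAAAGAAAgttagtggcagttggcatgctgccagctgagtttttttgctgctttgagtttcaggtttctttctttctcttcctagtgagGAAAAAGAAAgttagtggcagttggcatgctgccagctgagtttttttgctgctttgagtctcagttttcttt
IFIT1: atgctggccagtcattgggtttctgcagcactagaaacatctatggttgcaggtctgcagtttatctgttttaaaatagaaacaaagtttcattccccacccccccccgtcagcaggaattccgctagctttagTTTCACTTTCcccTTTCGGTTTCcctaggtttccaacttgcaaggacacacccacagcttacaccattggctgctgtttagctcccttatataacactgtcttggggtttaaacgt

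Of 16 measured NF-kappaB targets and cytokines, 3 were counted higher and 0 lower. The median was 0.17, with 13 differences above 0 and 3 below. With the array labelled 6-16 left out, 2 were counted higher, and CCL20 was no longer one of them. NFKBIA, which holds NF-kappaB in the cytoplasm, had 11.67, 11.32 and 11.63 on the low-TACC3 arrays, against 10.84, 10.74 and 10.84 on the high-TACC3 arrays. TNFAIP3, a ubiquitin-editing inhibitor, had 8.05, 7.65 and 7.91 on the low-TACC3 arrays and 7.32, 7.09 and 7.30 on the high-TACC3 arrays. The chemokine CCL20 had 7.33, 6.76 and 6.39 on the low-TACC3 arrays, against 6.14, 6.07 and 6.36 on the high-TACC3 arrays, where the nearest values of the sets were only 0.04 apart. Other members did not follow: LCN2 differed by -0.48 without overlap. CXCL1, CXCL2 and IL6 were dim and differed by 0.00, 0.04 and -0.01 with overlap. None of 13 MHC class I loading genes was counted, and the largest difference was 0.40 for HLA-E.

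FOXO-responsive genes, which rise in many cells when growth factor signalling is withdrawn, held 3 counted higher and 1 lower of 16, with a median of 0.19. Besides PDK4, PIK3IP1, a membrane inhibitor of PI3-kinase, had 9.60, 9.61 and 9.61 on the low-TACC3 arrays, against 8.71, 8.72 and 8.71 on the high-TACC3 arrays. The ubiquitin ligase FBXO32 had 9.03, 8.79 and 8.91 on the low-TACC3 arrays and 8.29, 8.30 and 8.41 on the high-TACC3 arrays. The gene counted lower was GADD45A, a stress and growth arrest gene, with 9.62, 9.39 and 9.54 on the low-TACC3 arrays and 10.15, 10.03 and 10.25 on the high-TACC3 arrays. Without the array labelled 6-16 the counts were 2 higher and 1 lower, and the median 0.19.

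Among secreted proteases, 3 of 16 genes of that list were counted lower and 0 higher. MMP1, interstitial collagenase, had the largest difference of all genes whose sets did not overlap. It had 6.51, 6.12 and 6.38 on the low-TACC3 arrays, against 9.26, 9.01 and 9.41 on the high-TACC3 arrays, a 7.35-fold lower median. MMP10, stromelysin 2, had 7.81, 7.79 and 7.68 on the low-TACC3 arrays and 9.52, 9.21 and 9.71 on the high-TACC3 arrays. MMP13, collagenase 3, had 6.52, 6.24 and 6.25 on the low-TACC3 arrays, against 7.09, 6.60 and 6.97 on the high-TACC3 arrays, with only 0.08 between the nearest values. The inhibitors TIMP2 and TIMP3 differed by 0.44 and 0.35, and MMP9 and MMP7 by 0.10 and 0.14 with overlap.

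Among genes whose sets did not overlap, the 10 with the lowest differences were MMP1, FABP4, SLC1A6, FGFBP1, MMP10, MAMDC2, DUSP6, MSMO1, PLAT and CHAC2. SLC1A6, a glutamate transporter, had 7.46, 7.17 and 7.18 on the low-TACC3 arrays and 9.13, 8.94 and 9.31 on the high-TACC3 arrays. PLAT, tissue plasminogen activator, had 10.46, 10.22 and 10.33 on the low-TACC3 arrays, against 11.95, 11.86 and 11.95 on the high-TACC3 arrays. MAMDC2 and CHAC2 differed by -1.71 and -1.60. The 3 low-TACC3 arrays lay at the lower end of the series for PLAT, where the other 18 arrays ran from 10.43 to 12.79.

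In the same ranking, the 10 highest were TRIM22, SELENOP, UPK1A, IFI44L, SCNN1B, PDE8B, ROBO1, ERP27, ID4 and CLDN8. TRIM22, an interferon-induced ubiquitin ligase, had 9.24, 9.24 and 9.37 on the low-TACC3 arrays, against 7.33, 6.76 and 6.99 on the high-TACC3 arrays. SELENOP, the selenium carrier, had 10.73, 10.73 and 10.64 on the low-TACC3 arrays and 9.01, 8.54 and 8.96 on the high-TACC3 arrays. Both lay within the range of the other 18 arrays. SCNN1B, a subunit of the epithelial sodium channel, had 9.02, 9.14 and 9.06 on the low-TACC3 arrays and 7.53, 7.43 and 7.65 on the high-TACC3 arrays. Here the high-TACC3 arrays lay below all 18 others, whose lowest value was 8.09. ROBO1, a receptor for SLIT ligands, had 6.31, 6.24 and 6.18 on the low-TACC3 arrays, against 4.66, 4.73 and 5.16 on the high-TACC3 arrays. The low-TACC3 arrays exceeded all others in ROBO1, since the highest of the other 18 was 5.05. PDE8B, a cyclic AMP phosphodiesterase, the protein disulfide isomerase family member ERP27, the inhibitor of DNA binding ID4 and the tight junction protein CLDN8 differed by 1.51, 1.49, 1.43 and 1.41.

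**Figure D3:**
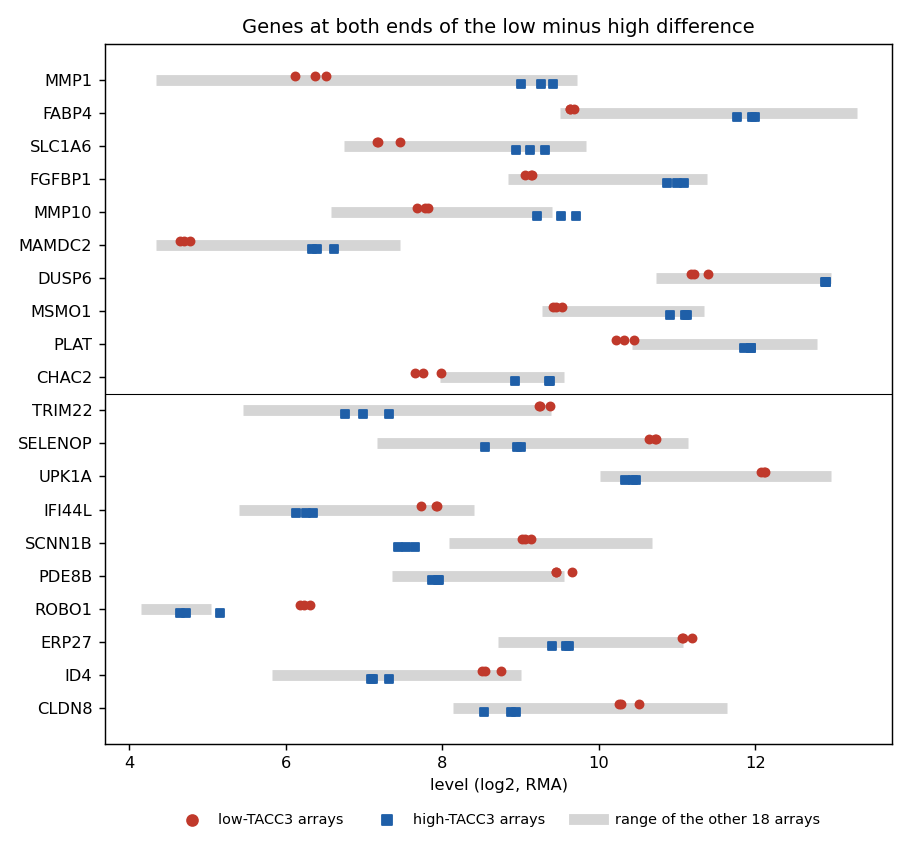
Log2 levels of the 10 genes with the lowest (top) and the 10 with the highest (bottom) difference of medians among genes whose sets do not overlap; red circles are low-TACC3 arrays, blue squares high-TACC3 arrays, and grey bars the range of the other 18 arrays. Most values lie within the grey bars, while ROBO1 is above them on all low-TACC3 arrays and SCNN1B below them on all high-TACC3 arrays. Some low-TACC3 arrays lie below the bars for PLAT and CHAC2 and above them for PDE8B and ERP27. Some high-TACC3 arrays lie above them for MMP10 and ROBO1.

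A pair of these arrays shares a label. Replicates 2 and 3 of the FGFR3 hairpin 4-1 line without doxycycline fell into the low-TACC3 and the high-TACC3 set, and across genes they correlated at -0.11. Between them, replicate 2 minus replicate 3, DUSP6 differed by -1.68, HMGCS1 by -1.71, SCD by -1.47, CDC6 by -0.88, UPK1A by 1.64 and TRIM22 by 2.38. On the dimmer FGFR3 probe set these replicates had 9.75 and 10.80. For genes whose sets do not overlap, the direction within this pair follows from the choice of the arrays. The pair shows how far 2 arrays under 1 label lay apart, and such distances enter the spread used in the labelled tests.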

How the data were processed

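The deposited values are log2 expression values, made by the authors with RMA and the affy package, per the submitters' processing notes, which give no versions. RMA quantile-normalizes arrays together. How probes were grouped into sets is not given in these sources. The 24 arrays held 54675 probe sets, no pair of arrays held identical values, and array medians ran from 6.98 to 7.08. Arrays have no read depth, so their number limits the precision.

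Gene names of probe sets came from the platform annotation held by GEO, in which 41097 had 1 symbol, 1801 had several and 11777 had none. By Entrez identifier 41043 matched RefSeq (GRCh38.p14), and 0 symbols differed. The probe set with the highest mean stood for each of 19775 genes, with no filter on low values.

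Differences between the 2 sets of 3 arrays are differences of medians, low minus high, with no test. The labelled comparisons used limma 3.58.1 in R 4.3.3, with 1 coefficient per labelled group and Benjamini-Hochberg adjustment over all genes. Counting and fits were tested on simulated data. The data simulated for the fits had independent noise for each gene and array. They do not show how the fits behave where genes share deviations. Same-numbered replicates of different groups had correlated deviations from -0.73 to 0.88, above 0.1 in 43 of 84 pairs, so the numbers were not taken to pair arrays.

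The 62 named genes are TACC3, FGFR3, GAS1, the 10 lowest and 10 highest differences without overlap, and up to 3 counted members of each of 25 lists, or else the member with the largest difference. The lists had 440 genes, of which 395 were measured. Other members are given as examples chosen after their values were seen. The arrays, members and lists were chosen with earlier results of these data known.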

Additional observations from a re-analysis of the deposited data

How the results depend on the processing

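The count of genes lower on the low-TACC3 arrays was 359, and it was 50 at 2-fold, 3799 with no minimum difference and 602 with arrays centred on their medians. The count of genes higher was 161, and it was 28 at 2-fold and 2800 with no minimum difference. Both counts stayed within 1.5 times with the probe set of largest SD, with genes of a mean of at least 6, and without any 1 of the 6 arrays, when they ran from 252 to 428 and from 145 to 185. Centring moved the median over all genes from 0.013 to -0.05, and the MHC class I median from 0.0736 to -0.0156. No named gene that was counted changed sign under the alternatives run; FGFR3 had -0.16 on the brighter and -1.03 on the dimmer probe set, and the cause was not tested. Limma's count for the labelled FGFR3 and EGFP comparison was 0 under every alternative. Its F-test count was 0 with the replicate block and without any 1 of the 24 arrays, and 1 with array weights; the cause was not tested.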

Other observations

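Of 14 measured ribosome biogenesis genes all differed below 0, with a median of -0.36, but 1 was counted lower. It was RRS1, a factor for the large ribosomal subunit, with 9.67, 9.51 and 9.44 on the low-TACC3 arrays and 10.21, 10.11 and 10.19 on the high-TACC3 arrays. All 20 measured nuclear genes of the respiratory chain differed below 0, with a median of -0.23 and 1 counted, the complex I subunit NDUFS1. It had 9.80, 9.65 and 9.66 on the low-TACC3 arrays, against 10.33, 10.10 and 10.29 on the high-TACC3 arrays. Glycolysis and hypoxia genes had a median of -0.23, with 4 of 24 counted lower and 1 higher. Pyruvate kinase, PKM, had 12.67, 12.73 and 12.66 on the low-TACC3 arrays and 13.34, 13.34 and 13.24 on the high-TACC3 arrays. VEGFA, the vascular growth factor, had 9.95, 9.73 and 9.85 on the low-TACC3 arrays and 10.54, 10.39 and 10.52 on the high-TACC3 arrays. NDRG1, a hypoxia-induced gene, went the other way, with 10.78, 10.69 and 10.70 on the low-TACC3 arrays and 9.89, 9.77 and 9.98 on the high-TACC3 arrays.

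In the ATF4 list, 2 of 19 genes were counted lower and 0 higher, with a median of -0.14. Without the array labelled 6-16 the count was 3 lower and the median -0.188, and without the high-TACC3 array labelled 4-1 the median was -0.057. The cystine transporter SLC7A11 had 6.91, 6.80 and 6.43 on the low-TACC3 arrays, against 8.07, 7.74 and 8.34 on the high-TACC3 arrays. PSAT1, an enzyme of serine synthesis, had 8.13, 7.91 and 8.01 on the low-TACC3 arrays and 8.83, 8.44 and 8.87 on the high-TACC3 arrays. The stress factors ATF4, ATF3 and DDIT3 differed by 0.17, 0.08 and 0.04. No BCL2 family gene was counted among 15. BMF, a BH3-only death activator, had their largest difference, 0.47, and the pore formers BAX and BAK1 had -0.34 and -0.39.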
